A study of Mus musculus with 4 samples.

Results

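Open chromatin was examined at 10 genes of muscle calcium handling, from the pumps that fill the sarcoplasmic reticulum to the channels that empty it, in 4 mouse muscles. The genes were Atp2a1, Atp2a2, Sln, Pln, Casq1, Casq2, Ryr1, Cacna1s, Jph1 and Jph2, and a peak belonged to them when the authors' annotation gave one of these as its nearest gene. They took 136 of the 120839 peaks in the 4 lists, 55 of the 53883 merged regions and 10 of the 17157 genes named. The peaks came from ATAC-seq, an assay that reads out accessible DNA from the places where the Tn5 transposase can insert an adapter. All muscles came from wild type mice that the labels call C57BL/6, with no exercise or other treatment named there. According to the methods the mice were male C57BL/6J. They were bought at 7 to 8 weeks of age, and their age at dissection for these libraries was not given in the sources used here. EDL (extensor digitorum longus) and Quad (quadriceps) are fast, glycolytic muscles of the hindlimb, the soleus (Sol) is a slow, oxidative hindlimb muscle, and the diaphragm (Dia) is the continuously active muscle of breathing. Each muscle was represented by 1 library that the labels call pooled, so there was no replicate error, no p-value was computed, and a difference holds for these 4 libraries as sequenced.

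Contraction starts when the action potential reaches the transverse tubules, where the voltage sensor Cav1.1 lies opposite the ryanodine receptor of the sarcoplasmic reticulum and opens it. The calcium that leaves was held inside by calsequestrin, and SERCA pumps return it, which ends the contraction. Fast fibres are known for SERCA1 and calsequestrin-1, and slow fibres and the heart for SERCA2a, calsequestrin-2 and the SERCA inhibitor phospholamban.

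The lists differed in length and in threshold, which bears on every count. EDL held 30136 peaks, Quad 40337, Sol 28784 and Dia 21582, and the lowest score was 3.27, 3.2, 3.06 and 3.63 in the same order. The Peak Score is the number of tags in a peak after HOMER's scaling to a common library size. Its steps, the worth of 1 tag, give between 78.1 M tags in Quad and 105 M in Sol if scores are scaled to 10 M tags (M, mega), the default. The percentile given below is the rank of a score within its own list. A gene with no peak is one with no peak called, and its signal may lie below the threshold of that list. Peaks of 5 fast-fibre genes numbered 4, 10, 4 and 3 in EDL, Quad, Sol and Dia, and those of 5 slow-fibre genes 2, 1, 8 and 3. The heart genes Myh6 and Nppa had 0 peaks in every list. Frozen muscle powder also holds other cells. The endothelial genes Pecam1 and Cdh5 had 10, 11, 10 and 5 peaks together and the leukocyte gene Ptprc 1, 1, 0 and 0, and their part in the results was not tested. A smaller share of nuclei of a type and less accessibility per nucleus cannot be told apart in such tissue.

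The 10 genes had 39 peaks in EDL and 41 in Quad, and 39 in Sol and 17 in Dia, or 0.129%, 0.102%, 0.135% and 0.0788% of the respective lists. The Dia count was the lowest in absolute number and as a share. At least 1 peak was named for 9 genes in EDL and 10 in Quad, and 9 in Sol and 7 in Dia. Jph1 and Jph2 held the most peaks in every list, Atp2a1 had a peak in Quad alone, and Sln and Pln had 0 in Dia. The 5 genes with more peaks in Quad than in Sol were Atp2a1, Pln, Casq1, Cacna1s and Jph2, and the 4 with fewer were Atp2a2, Sln, Casq2 and Jph1. Of all genes, 45.7% had more peaks in Quad and 12.4% had fewer. Between EDL and Sol, 3 of the 10 had more peaks in EDL (Pln, Cacna1s and Jph2, against 24.9% of all genes) and 3 had fewer (Atp2a2, Sln and Casq2, against 21.0%). With 10 genes, the exact 95% binomial interval of the 4 that had fewer in Quad runs from 12.2% to 73.8% and so just reaches the share of all genes. Intervals here and below cover counting error only.

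**Figure D1:**
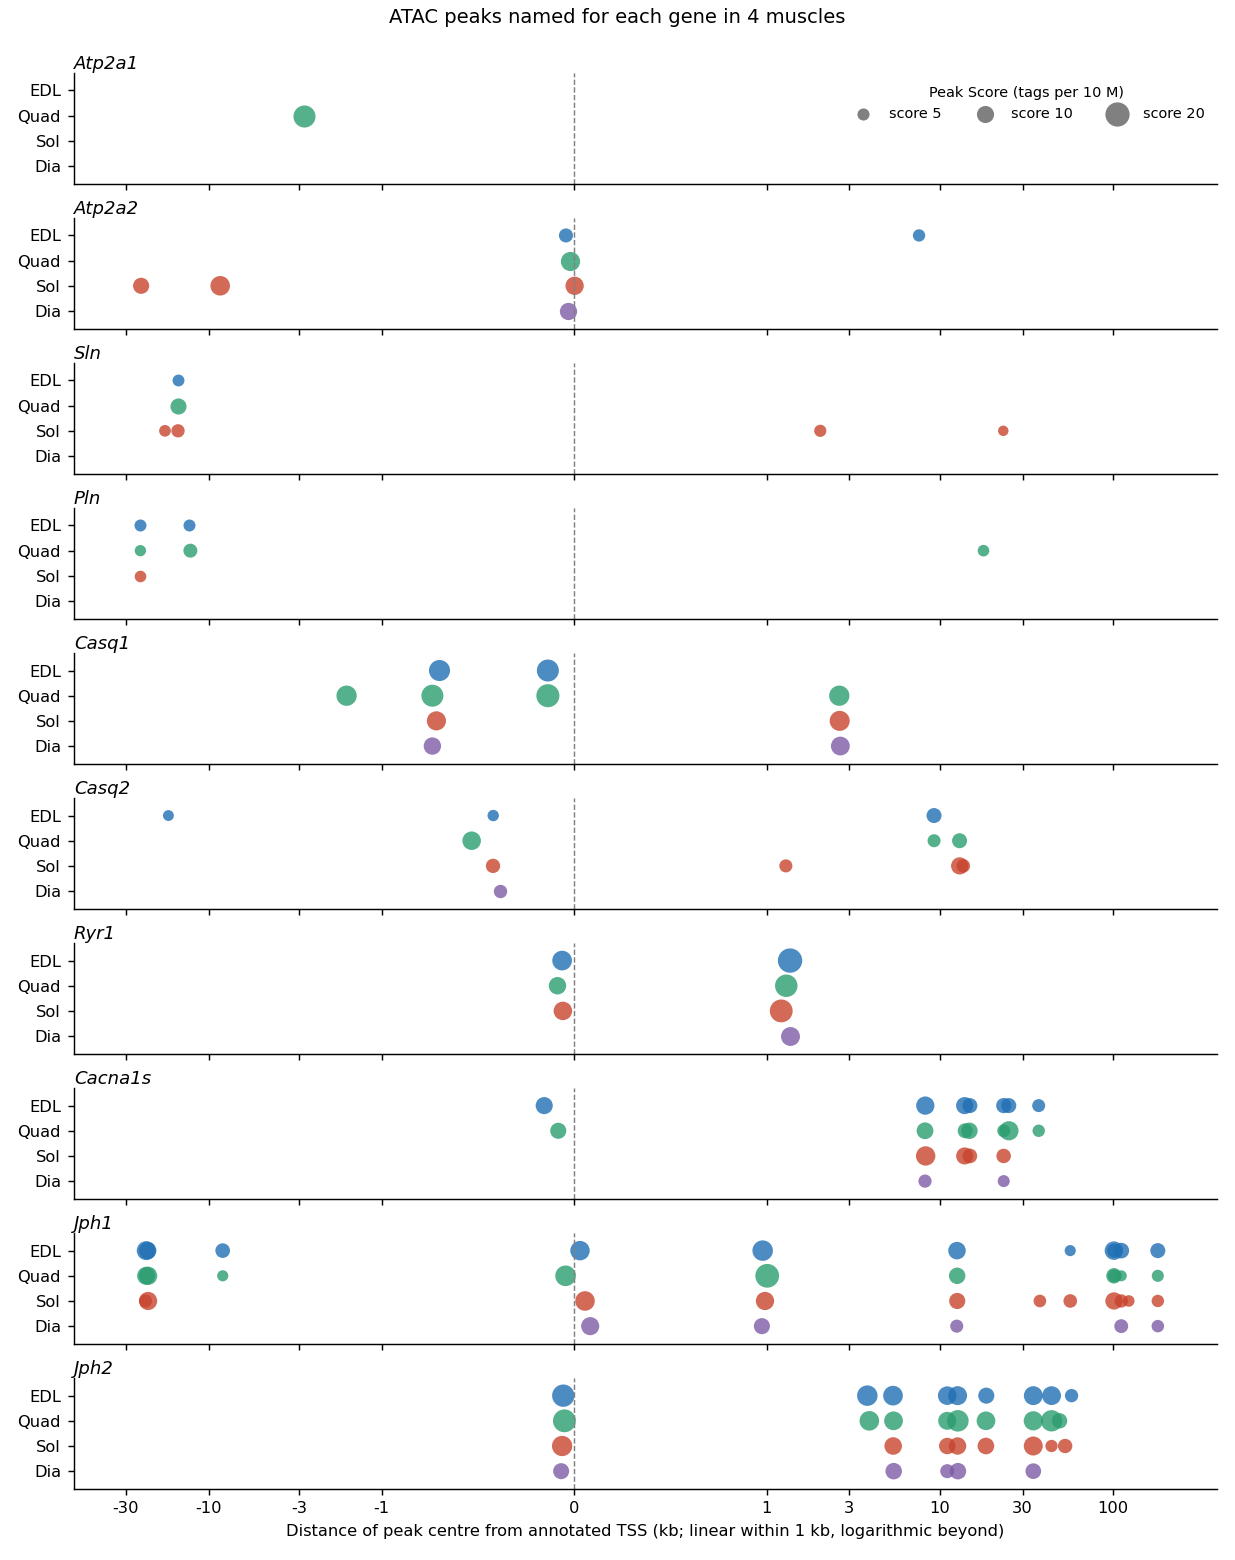
Position of every peak named for the 10 genes, by muscle (rows within a panel), against its distance from the annotated transcription start site (TSS) in kb; the area of a dot is proportional to its Peak Score. Atp2a1, Sln and Pln have no dot at the start site in any muscle, and Dia has 17 dots in all.

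Promoters, which the annotation places between 1 kb upstream and 100 bp downstream of a TSS, were open at 7 of the 10 genes in EDL and in Quad, at 6 in Sol and at 5 in Dia. Of all genes in the lists, 51.8%, 56.8%, 51.5% and 50.5% had a promoter peak, which lies inside the exact interval of each count. Atp2a2, Casq1, Casq2, Jph1 and Jph2 had a promoter peak in all 4 muscles. Ryr1 had one in EDL, Quad and Sol, and Cacna1s in EDL and Quad. No promoter peak was called at Atp2a1, Sln or Pln in any muscle. Most of the other peaks lay in introns, which held 22 of 39 in EDL and 23 of 41 in Quad, and 22 of 39 in Sol and 10 of 17 in Dia. These shares of 56.4%, 56.1%, 56.4% and 58.8% compare with 34.3%, 37.3%, 33.1% and 26.6% of the whole lists.

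The pumps differed in where they were open. Atp2a1 encodes SERCA1, the pump of fast fibres, and its gene body at chr7:126445858-126463108 (mm10, minus strand) held no peak. The single peak named for it was called in Quad, 2797 bp upstream of the TSS in intergenic sequence at chr7:126465776-126465964. It scored 16.6 (130 tags, counting interval 13.9 to 19.8) and reached percentile 91.8. The nearest peaks of the other muscles lay 9357 bp away in EDL, 9119 bp in Sol and 9104 bp in Dia. This peak is printed because it was the only one of the fast-fibre pump, on the strand of the gene from 5′ to 3′, with capitals for an E-box, CAGCTG, the recognition site of myogenic factors, and for the reverse complement of the nuclear receptor site AGGTCA.
Atp2a1 Quad peak at -2797: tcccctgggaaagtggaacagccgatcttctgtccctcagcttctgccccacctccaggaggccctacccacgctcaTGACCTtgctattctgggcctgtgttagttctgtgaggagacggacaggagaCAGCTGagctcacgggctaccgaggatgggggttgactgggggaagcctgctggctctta

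Atp2a2 encodes SERCA2, whose muscle isoform is the pump of slow fibres and heart. Its promoter was open in all 4 muscles, with scores of 6.73 in EDL and 12.6 in Quad, and 11.4 in Sol and 10.2 in Dia. EDL was the lowest and its counting interval, 5.25 to 8.51, did not reach that of Quad, 10.2 to 15.3. Away from the promoter the muscles had no region in common. In Sol alone, intergenic peaks lay 8564 bp upstream, with a score of 13.0 at percentile 84.5, and 24492 bp upstream, with a score of 8.89 at percentile 64.6. The nearest peaks of the other lists to the first of these were the promoter peaks themselves, 8311 to 8345 bp away. EDL alone had a peak in intron 3, 7575 bp into the gene, at a score of 5.2 and percentile 27.1. The Sol peak at chr5:122510686-122510892, the highest-scored region found in Sol alone among the 10 genes, is printed on the minus strand, that of the gene, with its E-box in capitals.
Atp2a2 Sol peak at -8564: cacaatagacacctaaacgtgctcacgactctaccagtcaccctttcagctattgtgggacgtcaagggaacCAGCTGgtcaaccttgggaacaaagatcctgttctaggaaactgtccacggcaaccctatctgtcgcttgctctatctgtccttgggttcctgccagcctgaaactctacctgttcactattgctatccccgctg

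The peptides that restrain SERCA had few and mostly low-scored peaks. Sln encodes sarcolipin, and its peaks numbered 1 in EDL and 1 in Quad, and 4 in Sol and 0 in Dia. EDL, Quad and Sol shared a region about 15.1 kb upstream, with scores of 4.81, 8.84 and 6.02. Sol alone had a further peak 17840 bp upstream with a score of 4.68, another in intron 1 at 2038 bp with a score of 5.07, and a last one 23208 bp downstream of the TSS with a score of 3.73. These stood at percentiles 17.6, 23.4 and 1.85 of the Sol list, so that all 3 were low, and among the 20000 highest-scored peaks of each list Sln kept 1 peak in Sol and 0 in EDL. No other gene in the lists had the same 4 peak numbers, which was also so for Cacna1s and Jph1. In Dia the peak nearest to the Sln TSS lay 182545 bp away and was named for Cul5. The intron peak at chr9:53852186-53852392 is printed on the plus strand because it was the only peak inside the gene. Capitals mark a match to MEF2, a regulator of muscle genes.
Sln Sol peak at +2038: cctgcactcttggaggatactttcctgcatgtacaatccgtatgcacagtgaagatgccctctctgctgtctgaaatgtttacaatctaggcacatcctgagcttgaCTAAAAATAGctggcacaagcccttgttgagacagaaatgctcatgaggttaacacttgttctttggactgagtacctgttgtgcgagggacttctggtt

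Pln encodes phospholamban, the SERCA inhibitor of heart and slow muscle. It had 2 peaks in EDL and 3 in Quad, and 1 in Sol and 0 in Dia. All of them lay in introns of Cep85l, a gene that extends on both sides of Pln. EDL, Quad and Sol shared a region 24.7 kb upstream, with scores of 4.91, 4.35 and 4.59. EDL and Quad shared another 12.8 kb upstream, with scores of 4.91 and 6.66. Quad alone had the third, 17848 bp downstream of the TSS with a score of 4.61. The highest percentile among these 6 peaks was 50.8, and the slow muscle Sol had the fewest Pln peaks of the hindlimb muscles.

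The calsequestrins, the calcium-binding proteins of the store, were open at their promoters in every muscle, and the muscles parted at the regions nearby. Casq1 encodes calsequestrin-1. A promoter region 726 bp upstream was open in all 4, with scores of 15.1 in EDL and 16.5 in Quad, and 12.5 in Sol and 10.3 in Dia. Another promoter region, 137 bp upstream at chr1:172219928-172220136, was open in EDL at 16.5 and in Quad at 18.1, at percentiles 91.7 and 93.4, and had no peak in Sol or Dia. The nearest Sol and Dia peaks, those of the first region, lay 372 and 380 bp away. A peak 1596 bp upstream was called in Quad alone with a score of 14.0. Intron 2 had another set of muscles, with scores of 14.0 in Quad, 13.7 in Sol and 12.1 in Dia about 2.6 kb into the gene, and no EDL peak within 2563 bp. It was the only 1 of the 55 regions missing from EDL alone. The Quad peak of the proximal promoter (chr1:172219938-172220126, minus strand) is printed with its E-box in capitals, since it was called in both fast muscles and in neither Sol nor Dia.
Casq1 Quad peak at -137: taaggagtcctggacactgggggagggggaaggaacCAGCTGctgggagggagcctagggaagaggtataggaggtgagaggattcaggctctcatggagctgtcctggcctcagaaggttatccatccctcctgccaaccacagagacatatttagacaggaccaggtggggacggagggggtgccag

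Casq2, which encodes calsequestrin-2, had 3 peaks in EDL and 3 in Quad, and 4 in Sol and 1 in Dia. Its promoter region was open in all 4, with scores of 4.43 in EDL and 11.7 in Quad, and 6.98 in Sol and 6.14 in Dia. Quad scored 2.64 times as high as EDL (counting interval 1.83 to 3.84), although the centres of these 2 peaks lay 112 bp apart and may not mark the same site. Inside the gene, EDL and Quad shared a region at 9.2 kb, with scores of 7.7 and 5.76. Quad and Sol shared one at 13.0 kb, with scores of 7.68 and 10.1, which was the only region with that pair of muscles. Sol alone had peaks at 1290 bp and 13651 bp, with scores of 5.83 and 6.21, and EDL alone had one 17044 bp upstream with a score of 4.04. All the regions inside Casq2 were annotated to intron 1. The Sol peak at 13.0 kb (chr3:102099309-102099515, plus strand) is printed as the highest-scored intronic peak of Casq2 and holds an E-box.
Casq2 Sol peak at +12997: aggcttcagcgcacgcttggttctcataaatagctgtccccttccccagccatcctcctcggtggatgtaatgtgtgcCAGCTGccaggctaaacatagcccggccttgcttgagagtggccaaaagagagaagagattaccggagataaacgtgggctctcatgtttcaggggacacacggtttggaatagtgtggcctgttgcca

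The release channel gave the highest-scored peak of the group in EDL, Sol and Dia. Ryr1 encodes the skeletal ryanodine receptor, and its intron 1 held a region about 1.3 kb from the TSS with scores of 20.2 in EDL and 17.2 in Quad, and 17.8 in Sol and 12.2 in Dia. It reached percentiles 95.4, 93.3 and 79.1 there. In Quad, at percentile 92.4, it ranked below intron 1 of Jph1 at 19.2, the -137 bp peak of Casq1 at 18.1 and the Jph2 promoter at 17.8. The Ryr1 promoter was open at 13.2 in EDL, 10.4 in Quad and 11.7 in Sol, and no Dia peak lay within 1198 bp of that region. Ryr1 spans 122 kb, and no other peak was named for it. A further EDL peak inside the gene, with a score of 7.41, was named for Mir1963. The EDL peak (chr7:29123683-29123891, minus strand) is printed for its rank, with capitals for an E-box and for the reverse complement of the NFAT core, TGGAAA, which the calcium-regulated NFAT factors bind.
Ryr1 EDL peak at +1364: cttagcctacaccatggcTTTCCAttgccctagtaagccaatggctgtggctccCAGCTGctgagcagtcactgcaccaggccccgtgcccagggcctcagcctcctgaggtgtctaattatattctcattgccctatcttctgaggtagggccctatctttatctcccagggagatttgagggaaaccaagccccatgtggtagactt

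Cacna1s encodes Cav1.1, the voltage sensor, and had 7 peaks in EDL and 7 in Quad, and 4 in Sol and 2 in Dia. Its promoter was open in EDL at a score of 10 and in Quad at 8.84 and had no peak in Sol within 8159 bp. In Dia the nearest peak lay 873 bp away and was named for Ascl5. The promoter peak touches annotated exon sequence, and only the 109 bp upstream of it in EDL (chr1:136052641-136052749, plus strand) are printed, with capitals for an E-box and for the reverse complement of the MCAT site, CATTCC, which TEAD factors bind.
Cacna1s EDL promoter, upstream part: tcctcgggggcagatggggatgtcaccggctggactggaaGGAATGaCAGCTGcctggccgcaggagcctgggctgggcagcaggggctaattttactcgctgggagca

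Inside Cacna1s, 2 regions had a peak in all 4 muscles, 2 in the hindlimb muscles alone and 2 in EDL and Quad alone. The intron 2 region at 8.2 kb scored 11.4 in EDL and 9.6 in Quad, and 12.8 in Sol and 5.94 in Dia. Sol scored 2.15 times as high as Dia there (counting interval 1.58 to 2.98). The intron 7 region at 23.4 kb scored 7.89, 5.76, 7.17 and 4.94 in the same order, with Dia again the lowest. The regions of EDL and Quad alone lay in intron 9, with scores of 7.7 and 12.6, and in intron 16, with scores of 5.77 and 5.25. Counting the promoter, 3 of the 7 Cacna1s regions had peaks in EDL and Quad alone, and no region was found in Sol or Dia alone.

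The junctophilins tie the transverse tubule to the sarcoplasmic reticulum, and they held 24 of the 55 regions and 10 of the 16 regions open in all 4 muscles. Jph1, the skeletal form, had 11 peaks in EDL and 10 in Quad, and 11 in Sol and 5 in Dia. Its promoter scored 12.9, 14.5, 13.0 and 11.2 in that order, a narrow range. Its intron 1 region, 985 bp into the gene, scored 14.3 in EDL and 19.2 in Quad, and 11.4 in Sol and 8.86 in Dia, and the Quad score was 2.17 times that of Dia (counting interval 1.65 to 2.85). A pair of intergenic regions 22.3 and 22.9 kb upstream was open in the 3 hindlimb muscles and in no Dia peak within 22196 bp. At the farther of them EDL scored 12.3 and Quad 11.0, and Sol 5.83. The EDL and Sol peaks there did not overlap: 24 bp lay between them, and the Quad peak joined them into a region, so their scores are of different sequence. Near the end of the gene the annotation placed 2 regions in the 3′ UTR, at 101.1 kb with peaks in EDL, Quad and Sol and at 101.6 kb with peaks in EDL and Quad. Beyond it a region at 111.4 kb was open in all 4, with scores of 8.37 in EDL and 4.1 in Quad, and 6.02 in Sol and 6.55 in Dia. The authors' annotation calls it intergenic, and it lies inside the GENCODE body of Jph1 (chr1:16964560-17097889). Sol alone had Jph1 peaks at 37759 and 123063 bp, with scores of 5.45 and 4.59.

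Jph2, the junctophilin that the heart shares, had 9 peaks in EDL and 9 in Quad, and 8 in Sol and 5 in Dia, all at the promoter or in introns. Its promoter scored 17.0 in EDL and 17.8 in Quad, and 14.0 in Sol and 8.76 in Dia, and Quad exceeded Dia by 2.03 times (1.54 to 2.69). The intronic regions at 5.4, 11.0, 12.7 and 34.6 kb were open in all 4 muscles, with EDL or Quad highest and Dia lowest at each of them. Only EDL and Quad were open in intron 1 about 3.9 kb from the TSS, with scores of 14.3 and 13.1 at percentiles 88.0 and 85.3, and the nearest Sol and Dia peaks lay 1262 and 1287 bp away. The intron 2 region at 44.1 kb scored 12.1 in EDL, 15.5 in Quad and 5.16 in Sol, and no Dia peak was called. Quad scored 3.0 times as high as Sol there (counting interval 2.16 to 4.22) and EDL 2.34 times (1.69 to 3.29). Single muscles had the last 3 regions, EDL at 57536 bp, Sol at 52826 bp and Quad at 49044 bp, with scores of 6.06, 7.07 and 8.07. The Quad peaks at 44.1 kb (chr2:163353781-163353969) and 3.9 kb (chr2:163393967-163394155) are printed on the minus strand as Jph2 regions that were higher in, or limited to, EDL and Quad. Capitals mark the nuclear receptor site AGGTCA in the first and the NFAT core TGGAAA in the second.
Jph2 Quad peak at +44098: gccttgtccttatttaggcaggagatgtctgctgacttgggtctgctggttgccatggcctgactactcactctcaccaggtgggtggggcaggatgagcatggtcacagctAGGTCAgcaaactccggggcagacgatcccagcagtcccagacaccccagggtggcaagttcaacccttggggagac
Jph2 Quad peak at +3912: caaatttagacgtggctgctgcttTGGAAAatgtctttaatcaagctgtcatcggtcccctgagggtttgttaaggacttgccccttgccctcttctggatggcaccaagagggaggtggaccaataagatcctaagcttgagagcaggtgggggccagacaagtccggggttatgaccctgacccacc

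**Figure D2:**
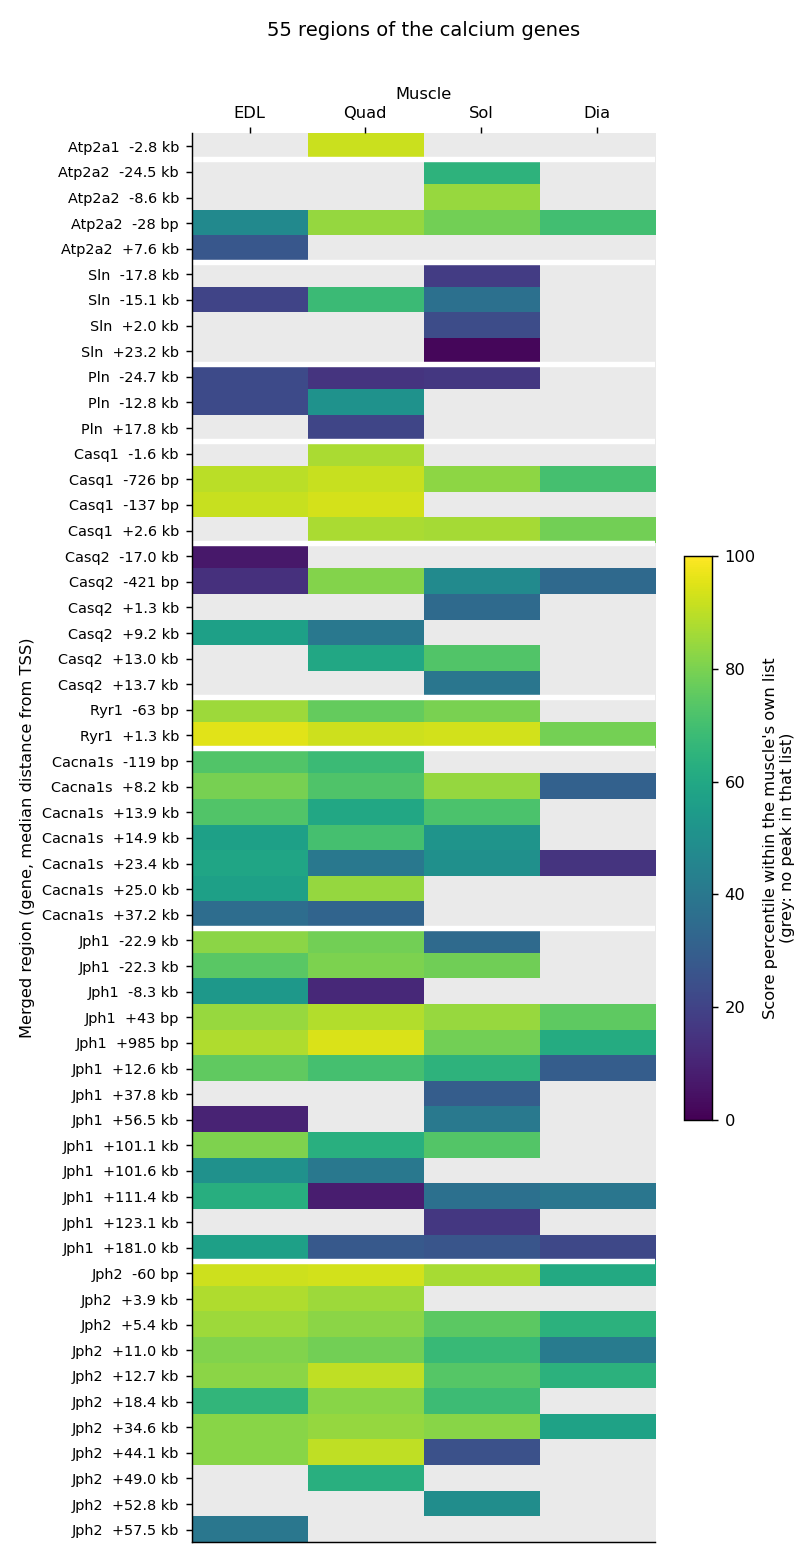
Score percentile of the 55 merged regions (rows, named by gene and median distance from the TSS) in each muscle's own list (columns), with grey where that list has no peak. Among others, 3 rows of Cacna1s and the Casq1 row at -137 bp are filled in EDL and Quad only, some rows of Sln, Atp2a2, Casq2, Jph1 and Jph2 show cells for Sol only, and no row is filled in Dia alone.

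Across the genes, 16 of the 55 regions (29.1%, exact 95% binomial interval 17.6% to 42.9%) were open in all 4 muscles, close to the 26.9% of all merged regions. A further 10 were open in EDL, Quad and Sol without Dia (18.2%, 9.08% to 30.9%), against 8.09% of all regions. EDL and Quad alone shared 9 (16.4%, 7.77% to 28.8%), against 8.05%. Sol alone had 10 (18.2%, 9.08% to 30.9%), against 8.62%, and these fell in Atp2a2, Sln, Casq2, Jph1 and Jph2. Quad alone had 4 (7.27%, 2.02% to 17.6%), against 22.7%, and EDL alone 3 of 55, against 6.71%. No region was open in Dia alone, against 4.61%, and none in Sol and Dia alone, against 1.20%. The upper bound for a count of 0 in 55 is 6.49%, so neither absence lies outside counting error. The intervals for EDL, Quad and Sol, for Sol alone and for Quad alone leave out the share of all regions. In the upper 50% of each list 2 of 40 regions were open in Sol alone, against 5.84%. Among the 20000 highest-scored peaks of each list 4 of 46 were open in Quad alone, against 7.95%. Neither of these last shares stood apart from all regions. The set of EDL, Quad and Sol was not recomputed under these settings, and its lower bound of 9.08% lies near 8.09%. The farther upstream Jph1 region belongs to this set, although its EDL and Sol peaks did not overlap. All these intervals treat neighbouring regions of a gene as independent.

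**Figure D3:**
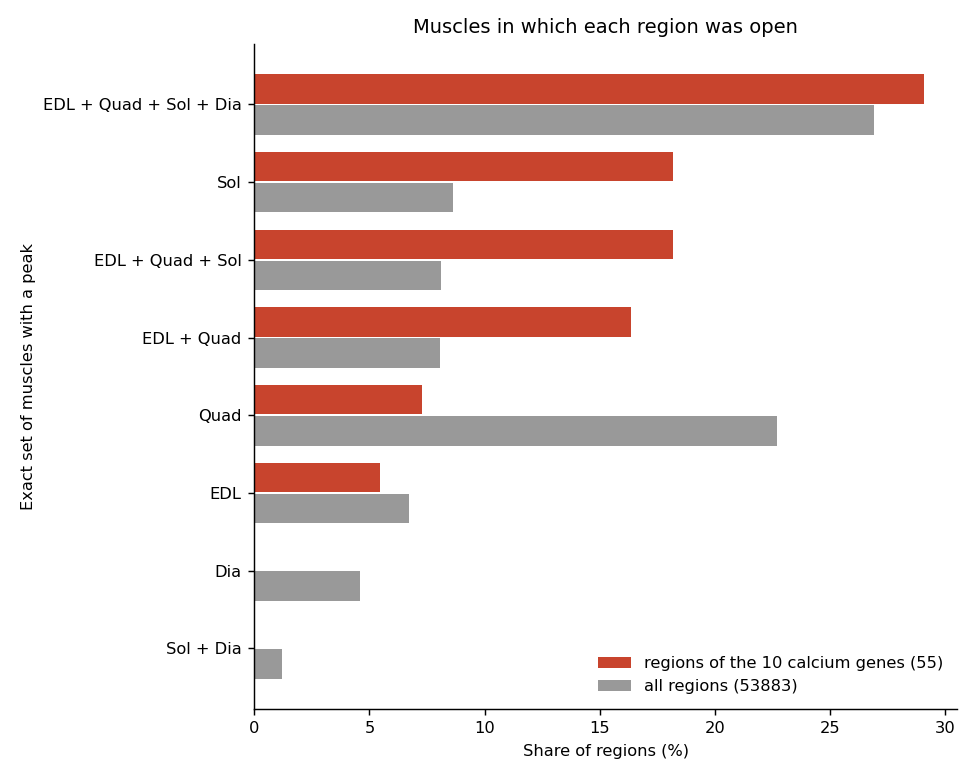
Share of merged regions (x axis, percent) by the exact set of muscles with a peak (y axis), for the 55 regions of the calcium genes (red) and all 53883 regions (grey). EDL + Quad, EDL + Quad + Sol and Sol have longer red bars and Quad alone a longer grey bar; 3 further sets with 1 region of the calcium genes each are not drawn.

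Pairs of muscles shared these regions to different degrees. EDL and Quad shared 35 of the 45 regions open in either (77.8%, 62.9% to 88.8%), against 52.8% of all regions. That excess was lost among the 20000 highest-scored peaks of each list, where the share was 60.0% against 63.4%. The other pairs shared between 40% (EDL and Dia) and 53.8% (Quad and Sol) of the regions open in either, against 39.2% to 53.7% of all regions. Taken as a share of each list, the 17 Dia regions all held a Quad and a Sol peak, and 94.1% held an EDL peak, whereas 41.0% of the EDL regions, 41.5% of the Quad regions and 43.6% of the Sol regions held a Dia peak. For all regions, 80.7% of Dia regions held a Quad peak, 77.2% a Sol peak and 77.3% an EDL peak. In the other direction 55.4% of all EDL regions, 43.2% of all Quad regions and 57.9% of all Sol regions held a Dia peak. The share at these genes was lower in EDL and Sol and close to all regions in Quad. For Sol its exact interval, 27.8% to 60.4%, holds the share of all regions, and for EDL none was computed. At these genes no region was open in Dia without a hindlimb muscle, against 4.61% of all regions, an absence that did not lie outside counting error.

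Score differences of 2-fold or more were few. They were reached in 8 of the 140 comparisons of a merged region between a pair of muscles. In all 8 the counting interval of the ratio excluded 1. That adds no support, because these comparisons were picked for a large ratio. In 1 of the 8, the upstream Jph1 region in EDL and Sol, the peaks of the pair did not overlap each other. Between EDL and Quad 2 of 35 shared regions passed 2-fold, against 0.751% of all shared regions, and between EDL and Sol 2 of 27, against 1.05%. With the EDL and Sol lists merged on their own, so that shared peaks overlap, it was 1 of 26, also against 1.05%. Between Quad and Sol it was 1 of 28, against 1.33%. With Dia, 0 of 16 passed against EDL (1.56% of all), 2 of 17 against Quad (1.91%) and 1 of 17 against Sol (0.864%). These are the regions of Casq2, Jph1, Jph2 and Cacna1s named above. With 1 or 2 regions per pair, the shares of the members have wide intervals, such as 0.7% to 19.2% for EDL and Quad.

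Smaller differences mostly had Dia lower. Dia scored lower at 14 of 16 regions shared with EDL, 15 of 17 shared with Quad and 15 of 17 shared with Sol, where the other muscle was higher at 54.6%, 72.2% and 57.6% of all shared regions. Among the exceptions were the Atp2a2 promoter, with 10.2 in Dia and 6.73 in EDL, and Jph1 at 111.4 kb, with 6.55 in Dia and 4.1 in Quad. The median score ratio at shared regions was 1.46 for EDL to Dia, 1.51 for Quad to Dia and 1.21 for Sol to Dia, where all shared regions had 1.03, 1.14 and 1.04. At the 16 regions open in all 4 muscles Dia had the lowest score at 12, compared with 38.6% of all such regions, and the highest at 0. Quad was highest at 8 of the 16, EDL at 7 and Sol at 1, where over all such regions Quad was highest at 51.2%, EDL at 18.1% and Sol at 18.3%. At these 16 regions the median percentile was 81.7 in EDL and 83.3 in Quad, and 76.7 in Sol and 59.1 in Dia. For all regions open in the 4 muscles it was 71.3, 78.4, 71.1 and 63.5. The medians of these 16 regions were thus higher than those of all such regions in the hindlimb muscles and lower in Dia. Of the 16, 5 lay in Jph1 and 5 in Jph2, no interval was computed, and promoters were not separated. Among all Dia peaks of the 10 genes, those outside promoters had a median percentile of 49.7, against 34.1 in the list. The promoter peaks had 69.8, against 74.1. Among the hindlimb muscles the medians were closer, with 1.09 for EDL to Quad, 1.13 for EDL to Sol and 1.07 for Quad to Sol, against 0.907, 0.989 and 1.1 for all shared regions.

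**Figure D4:**
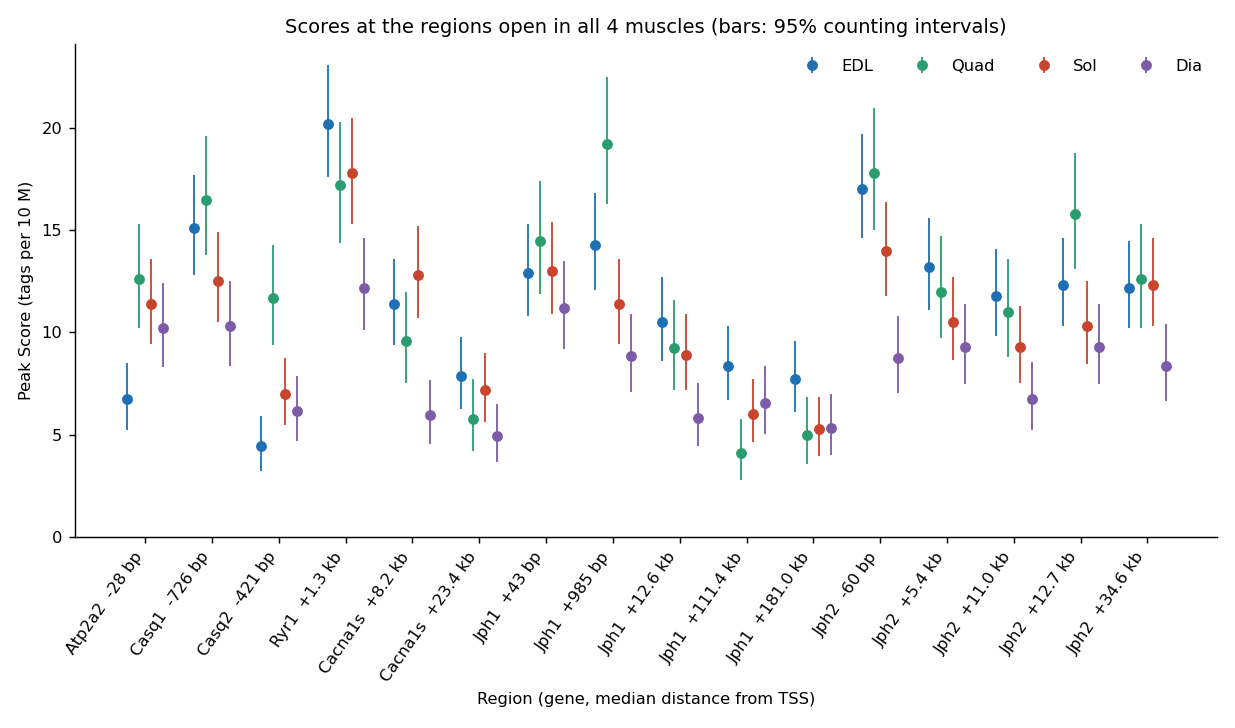
Peak Score (tags per 10 M, y axis from 0) at the 16 regions open in all 4 muscles, named by gene and median distance from the TSS, with points for each library and bars for exact 95% counting intervals. Dia has the lowest point at 12 of the 16 regions, and EDL the lowest at the promoters of Atp2a2 and Casq2.

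Within their own lists the peaks of these genes ranked above the middle. The median percentile was 72.9 in EDL and 78.9 in Quad, and 64.6 in Sol and 60.7 in Dia. Outside promoters it was 62.5, 70.5, 51.9 and 49.7, where all peaks outside promoters had 38.3, 40.0, 38.2 and 34.1. Promoter peaks stood at 84.9, 86.2, 81.5 and 69.8, against 76.3, 81.3, 75.7 and 74.1. The Dia promoters were the single class with a median below that of its list.

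The sequences under the peaks were searched on both strands for 8 fixed motifs in the mm10 reference. The E-box CAGCTG was present in 21 of the 55 regions, MCAT (CATTCC) in 17, the NFAT core TGGAAA in 16, the nuclear receptor site AGGTCA in 12, the GC box GGGCGG in 8, MEF2 in 4, MEF3 (TCAGGTT) in 2 and the CArG box in 0. No 2 of these spelled motifs contain each other. The E-box was found in 30.8% of the member peaks in EDL and 31.7% in Quad, and 33.3% in Sol and 41.2% in Dia, against 20.8%, 19.1%, 20.3% and 19.5% of all peaks. The MCAT shares were 28.2%, 22.0%, 25.6% and 23.5%, against 12.2%, 10.7%, 11.9% and 11.7%. Outside promoters the E-box shares were 25.8%, 27.3%, 33.3% and 41.7% in the same order, against 25%, 21.8%, 24.5% and 24.5%, so that in EDL the peaks outside promoters were at the level of their list. For MCAT outside promoters they were 29.0%, 24.2%, 27.3% and 25%, against 14.3%, 12.2%, 14.0% and 14.5%. NFAT matches were in 30.8% of the EDL, 31.7% of the Quad, 15.4% of the Sol and 23.5% of the Dia peaks, against 17.8%, 16.4%, 17.9% and 18% of the lists. The nuclear receptor site was in 22.0% to 23.5% of the member peaks, against 14.1% to 15.7%. Outside promoters it was in 24.2% to 25.8%, against a closer 16.6% to 20.6%. MEF2 was in 4.88% to 11.8%, against 3.09% to 4.4%, and MEF3 in 4.88% to 11.8%, against 2.86% to 3.31%, both resting on 2 to 4 peaks per muscle. The CArG box, absent here, was in 1.03% to 1.21% of all peaks. By region, 4 of the 9 open in EDL and Quad alone held the NFAT core, as did 1 of the 10 open in Sol alone. MCAT (4 and 2) and the GC box (2 and 0) went the same way. The E-box (2 and 4), the nuclear receptor site (1 and 2) and MEF2 (0 and 1) went the other way. Shares over all regions of these 2 sets were not computed, so the counts cannot be set against them. These are counts of letters in few peaks, and most regions recur in several lists.

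The promoters were poor in CpG. A member promoter peak held a median of 7.5 CpG dinucleotides in EDL and 6 in Quad, and 7.5 in Sol and 8 in Dia, against 17, 15, 17 and 19 for all promoter peaks of the lists. Their median GC content, between 60.6% in Quad and 64.4% in Dia, was near that of all promoter peaks, 63.6% to 64.6%. Over all peaks, promoter or not, GC boxes were in 17.9%, 14.6%, 12.8% and 23.5% of the member peaks, against 27.7%, 23.8%, 29.0% and 37.6%. Promoters made up 20.5%, 19.5%, 15.4% and 29.4% of the member peaks, against 30.7%, 25.5%, 31.9% and 41.3% of the lists. Outside promoters GC boxes were in 6.45%, 3.03%, 3.03% and 8.33%, against 12.2%, 10.8%, 12.8% and 16.8%, resting on 1 or 2 peaks per muscle. The GC box share of promoter peaks alone was not computed. No member peak was repeat-masked over more than 50% of its length.

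A list of 41 further genes of calcium handling gave the surroundings. They had 120 peaks in EDL and 177 in Quad, and 119 in Sol and 70 in Dia, so Dia was again the lowest. Strit1, a SERCA-activating peptide gene, was not found under that symbol in the lists or the gene annotation, and the other 40 had a peak. Promoter peaks in all 4 muscles were found at 17 of these 40 (42.5%, against 40.8% of all genes), which included the junctional proteins Trdn, Asph, Hrc and Jsrp1, the tubule genes Bin1 and Mtm1, the store-operated entry genes Stim1 and Orai1, and Calm2, Calm3, Camk2a, Camk2d and Camk2g. More peaks in Quad than in Sol were seen at 29 (72.5%, against 45.7% of all genes), fewer at 4 (10%, against 12.4%) and equal numbers at 7. The Quad list was longer, at 40337 peaks against 28784 in Sol, and the next count was not computed over all genes. The difference reached 3 or more peaks at 10 genes, always with more in Quad. Among these were Mrln, whose peptide myoregulin restrains SERCA, with 8 in Quad and 3 in Sol, the channel gene Tmem38a with 4 and 0, Stac3, needed at the junction, with 6 and 3, and Camk2d with 12 and 7. The 10 genes described here split 5 to 4 on the same comparison.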

How the data were processed

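ATAC-seq of EDL, Quad, Sol and Dia was analysed from the 4 deposited peak lists, 1 pooled library per muscle. The authors pulverised frozen muscle, transposed the nuclei, aligned read pairs to mm10 with Bowtie2 at default settings, kept 1 tag per position, and called fixed-width peaks with HOMER in each library separately. The submitters' processing notes name the same tools and build. The deposited Peak Score is a signal, a tag count scaled by library size, and the deposited Focus Ratio is a fraction that entered no result. Default alignment places reads of repeats at 1 of several equal positions, and a Tn5 offset was not given in the sources used here. Peaks were 208, 188, 206 and 232 bp wide in EDL, Quad, Sol and Dia, end minus start, so a wider peak can gather more tags.

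Members were found by the authors' nearest-gene column. The 10 members, the lists of 41 calcium genes and of markers, and the motifs were chosen with earlier results of these data known. The naming rule covered all members and, of the 41 genes, those with no peak, with a promoter peak in all lists, or with at least 3 peaks of difference between Quad and Sol. The printed sequences were chosen after the values were seen. Peaks overlapping by at least 1 bp were merged into regions. For peak scores and ratios, tags were recovered from the score step (100% of scores under 10 were whole multiples, tolerance 0.0051) and given exact 95% Poisson or conditional binomial intervals. Shares have exact binomial intervals. All intervals cover counting error only. The TSS implied by the authors' distances lay within 151 bp of the GENCODE vM21 start of each member. Sequence came from the RefSeq GRCm38.p6 FASTA, the assembly of mm10. Alternatives were list length, distance, overlap, score scaling and motif window. The scripts ran in Python 3.11.15 with pandas 2.3.3, numpy 2.4.6 and scipy 1.17.1 and were tested on simulated data.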

Additional observations from a re-analysis of the deposited data

How the results depend on the processing

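Of 119 recomputed summary values, 111 held and 8 moved. Some had little room to move. The 8 counts of regions with a motif set peaks of 188 to 232 bp against a window of 200 bp. The cut at 20000 peaks left out few of the 21582 Dia peaks. A count held within 1.5 times the reported one, a share within its exact interval, and a median within the exact interval of its order statistics. Merging the lists in pairs, an alternative chosen after seeing the data, moved none of the 12 values it bears on. With the upper 50% of each list the peaks of the 10 genes fell to 23 in Sol and 10 in Dia. The share of regions common to EDL and Quad was 60.0% with 50% reciprocal overlap, 60.0% with the 20000 highest-scored peaks and 60.5% with the upper 50%, where all regions gave 43.3%, 63.4% and 60.2%. Relative to the regions open in all 4 muscles, the median score ratio became 1.22 for EDL to Quad and 1.13 for Sol to Dia, and per bp of peak width it became 1.86 for Quad to Dia. The cause was not tested. Of 160 peak numbers of single genes, 34 moved, 13 of them in the upper 50% of each list. Counting every peak in the gene body or within 20 kb gave Atp2a1 3 peaks in EDL, Sol and Dia and 4 in Quad. No paired analysis was possible because each muscle had 1 library and no result came from a test. With a lowest score of 25 to 36 tags, a missing peak does not show closed chromatin, and without replicates the spread between animals is unknown.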

Other observations

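The region around Atp2a1 was open in every muscle at its neighbours. Peaks named for Rabep2, Sh2b1 and Tufm lay within 20 kb of the Atp2a1 body in all 4 lists. The peak named for Sh2b1 scored 9.91 in EDL and 10.5 in Quad, and 7.36 in Sol and 9.97 in Dia, and the one named for Tufm 9.52, 16.9, 10.4 and 11.7. For Pln in Dia the nearest peak was named for Cep85l and lay 42325 bp from the Pln TSS at percentile 84.8. The peak named for Ascl5 about 0.8 kb from the Ascl5 TSS, which lies beside the Cacna1s promoter, was called in EDL at 6.35, in Quad at 5.51 and in Dia at 5.94, and not in Sol. The region downstream of Casq1 that is named for Pea15a was open in all 4 muscles, with scores of 9.81 in EDL and 8.96 in Quad, and 8.12 in Sol and 7.65 in Dia.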
